A study of Mus musculus with 8 samples.

Results

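The 10 genes described here encode survival and death proteins of the BCL2 family. They were taken by name from the deposited expression table, and all 10 were among its 20029 genes. RNA was measured in 8 libraries of CD8+ T cells sorted from MC38-OVA tumours, a mouse colon carcinoma line growing under the skin of the flank that carries the model antigen ovalbumin. The knockout (KO) hosts carried the B6.129S4-Pglyrp1tm1.1Lky/J allele (4 libraries, numbered 1 to 4) and the wild-type (WT) hosts were C57BL/6J (4 libraries, numbered 6 to 9). Sorting kept 1000 cells per library that stained for CD45, TCRβ and CD8, and the same tumour line was injected into both genotypes. The comparison asks whether losing Pglyrp1, a secreted peptidoglycan-binding protein, in the host alters RNA of the cell death machinery in these T cells.

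BCL2 family proteins decide whether the outer mitochondrial membrane of a cell is breached. Survival members such as BCL2, BCL-XL, MCL1 and A1 hold the pore-forming effectors BAX and BAK in check. BH3-only members such as BIM, PUMA and NOXA are induced by stress or by loss of growth factor, and BID is activated when its protein is cut. They either occupy the survival members or switch on the effectors. In CD8+ T cells, interleukin 7 signals maintain BCL2, antigen receptor signals induce A1 and BCL-XL, and BIM is the main killer of activated cells as a response contracts.

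A1 is encoded in the mouse by several near-identical gene copies, which are shown first because their values rest on how short reads were divided among them. The coding sequences of Bcl2a1a, Bcl2a1b and Bcl2a1d, each 516 bases long, were read from the GENCODE M21 transcripts of the GRCm38 build. Bcl2a1b and Bcl2a1d differ at 6 of these bases (98.84% identical), Bcl2a1a and Bcl2a1d at 7, and Bcl2a1a and Bcl2a1b at 11. The first 90 coding bases read as follows, with capitals at the 6 positions where the copies differ.
Bcl2a1a: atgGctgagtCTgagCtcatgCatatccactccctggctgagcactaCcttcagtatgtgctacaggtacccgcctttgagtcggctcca
Bcl2a1b: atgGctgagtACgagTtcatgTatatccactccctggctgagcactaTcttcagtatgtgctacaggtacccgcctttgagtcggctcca
Bcl2a1d: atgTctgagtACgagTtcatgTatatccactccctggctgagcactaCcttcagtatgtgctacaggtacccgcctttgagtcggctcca
Reads were 38 bases long, sequenced from both ends. Of the 780 stretches of 38 bases in the Bcl2a1b transcript, 66.15% occur unchanged in another copy, and of those in Bcl2a1d and Bcl2a1a 85.59% and 75.58% do. The split of A1 reads between the copies is therefore uncertain, and their summed level is given beside the separate values.

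Bcl2l11, which encodes BIM, and Bbc3, which encodes PUMA, are known targets of FOXO transcription factors. Their promoter windows are shown because their difference kept its direction under every alternative in which they were tested (21 for Bcl2l11, 20 for Bbc3). Of the 10 genes, only these did so, and neither passed the adjusted threshold. Apart from Bax, the others turned only where pairs of libraries were left out, settings chosen after the data were seen. RefSeq promoter windows of 300 bases (GRCm38.p6, mostly upstream of a start site) were used for 9 of the 10 genes, 14 windows in all. Pmaip1 was left out and its promoter was not searched. The FOXO motif GTAAACA, searched on both strands, occurs once in each of 2 of these windows and in 3.65% of all 32851 windows of that length. In Bcl2l11 (chr2:128125788-128126087, plus strand) it is at position -227 relative to 1 of 2 annotated start sites, and the other window holds no match. In Bbc3 it is at position -167 relative to 1 of 3 annotated start sites (chr7:16310011-16310310, plus strand), on the opposite strand. Capitals mark the FOXO motif.
Bcl2l11: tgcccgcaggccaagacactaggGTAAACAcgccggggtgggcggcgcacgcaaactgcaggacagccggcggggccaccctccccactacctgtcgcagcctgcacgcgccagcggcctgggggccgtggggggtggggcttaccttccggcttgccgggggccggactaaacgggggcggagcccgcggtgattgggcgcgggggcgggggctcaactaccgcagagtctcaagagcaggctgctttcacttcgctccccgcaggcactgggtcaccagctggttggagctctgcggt
Bbc3: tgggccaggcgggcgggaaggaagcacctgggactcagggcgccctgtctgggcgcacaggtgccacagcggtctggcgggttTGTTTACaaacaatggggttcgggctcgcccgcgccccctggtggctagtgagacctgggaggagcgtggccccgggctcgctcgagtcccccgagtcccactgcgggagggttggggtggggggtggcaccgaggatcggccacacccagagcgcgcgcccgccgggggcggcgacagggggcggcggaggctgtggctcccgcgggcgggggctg
These matches describe the letters only and are no evidence of binding.

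Levels are those of the deposited score, named a TPM-normalized count, after scaling every library to a total of 1000000. They are written as transcripts per 1000000 (TPM) and taken as a measure per transcript length, which could not be checked from the values. Totals before scaling ran from 2223162 to 3342847, with 11935 to 13300 genes detected in a library. Pglyrp1 was listed at 0 in every KO library and at 123 to 209.6 TPM in WT libraries. CD8 T cell markers were present throughout, with a summed level (9 genes) of 5783 to 6594 TPM in KO and 6004 to 8091 TPM in WT libraries. A pair of libraries stood apart in each genotype. The sum of 18 myeloid markers was 9557 and 13000 TPM (rounded from 12999.7) in KO libraries 3 and 4 and 453.9 to 1288 TPM in the other 6, and 17 of the 18 were highest in that pair. The sum of 7 naive and memory T cell markers was 2220.2 and 1988 TPM in WT libraries 6 and 9, at most 1314 TPM in the others and lowest in KO library 4, at 365 TPM. The sum of 5 B cell markers was 46.7 and 49.95 TPM in WT 6 and 9 and 6.05 to 20.8 TPM elsewhere. The sum of 8 natural killer cell markers was 312 and 218 TPM in WT 6 and 9 and 599.6 to 1063 TPM elsewhere. Most of it in every library was the granzyme gene Gzma, at 266 and 187 TPM in WT 6 and 9 and 502 to 1031 TPM elsewhere. Klra4 of the same list was not low in that pair (5.69 and 5.90 TPM, 0 to 8.97 TPM elsewhere), so the sum mainly reflects Gzma. Single libraries stood out in other lists. The sum of 6 neutrophil markers was 136 TPM in KO 3, 81.9 TPM in WT 7 and 16.0 to 31.1 TPM elsewhere, with Retnlg listed at 0 throughout. The CD4 and regulatory T cell sum was 85.3 TPM in KO 3 and at most 36.6 TPM elsewhere. Cd4 alone was 66.7 TPM of it in KO 3, whereas Foxp3 there (2.69 TPM) lay within the 2.03 to 7.56 TPM of the other libraries. The sum of tumour and stroma markers was 117 TPM in KO 4 and at most 38.6 TPM elsewhere. The part of the mix of cells in the results below was not tested. In bulk RNA, fewer cells of a type and less RNA per cell cannot be told apart. For the 10 genes, the pathway list medians and the pathway genes that were low or high in these pairs, values without them are given as well.

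Genes were compared with limma on log2(TPM + 1) over all 10732 genes that reached 1 TPM in 4 or more libraries, and p-values were adjusted by Benjamini-Hochberg over all of them. Fold changes on this scale understate the change of low genes. All 10 genes entered the test and 0 passed an adjusted p of 0.05, as did 0.0280% of all genes tested (3 genes). At an unadjusted p under 0.05, 3 of the 10 had higher values in KO (Bcl2a1b, Bcl2a1d and Bcl2l11), where 6.01% of all genes did, and 1 had lower values (Bbc3), where 3.07% did. Bcl2a1b and Bcl2a1d share much of their sequence and are not separate measurements. The median log2 difference of the 10 was 0.34, beside 0.04 over all genes tested. Without KO 3 and 4 it was 0.27 (all genes -0.02), without WT 6 and 9 it was 0.026 (all genes -0.038), and without both pairs -0.12 (all genes -0.11). A p that misses the threshold does not show that the genotypes are alike.

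**Figure D1:**
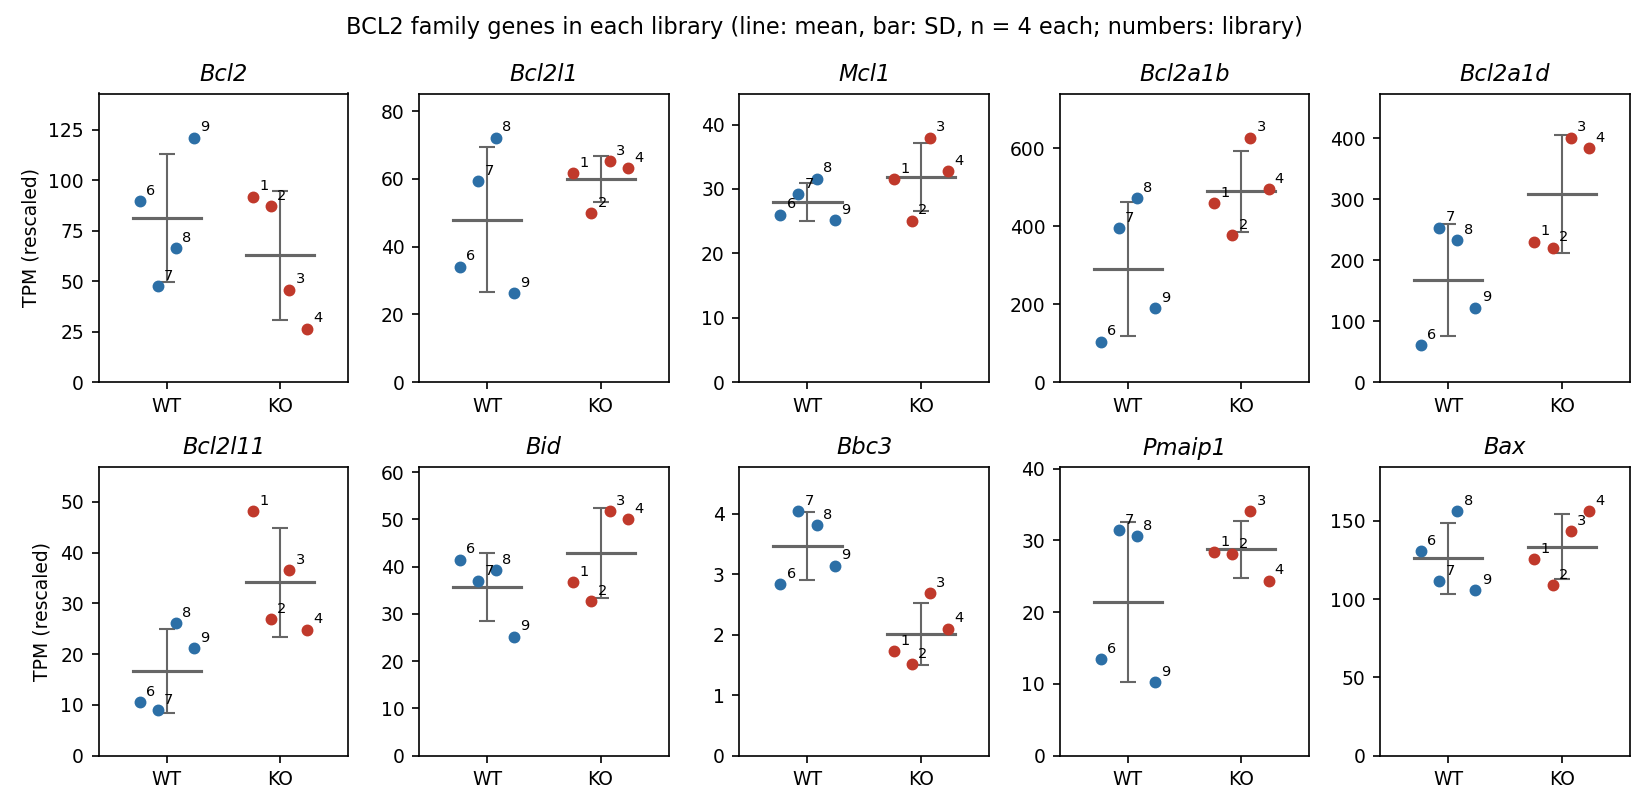
TPM of each of the 10 genes in every library, with the WT libraries in blue and the KO libraries in red, each point carrying its library number. Lines are means and bars SDs (n = 4 each), and each panel starts at 0. Bbc3 is the only panel in which the groups do not overlap.

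Among the 5 survival genes, A1 copies b and d had the highest means, although in WT 6 Bcl2 was above Bcl2a1d. Bcl2a1b (chromosome 9, 89199209 to 89207827) was at 459 (KO 1), 378 (KO 2), 627 (KO 3) and 496 TPM (KO 4) in KO cells. In WT cells it was at 104 (WT 6), 395 (WT 7), 471 (WT 8) and 190.0 TPM (WT 9). The low values belong to WT 6 and 9, while WT 7 and 8 lie within the KO range. Means were 490.03 ± 104 and 290.1 ± 172 TPM (SD, n = 4 each), a log2 difference of 0.96 (SE 0.43, limma adjusted p = 0.550).

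Bcl2a1d (chromosome 9, 88723285 to 88731914) had a similar pattern. It measured 230.4, 221, 401 and 383 TPM across KO 1 to 4, against 60.1, 253, 233 and 122 TPM across WT 6 to 9. KO 1 and 2 were thus below WT 7 and 8. Its log2 difference was 1.04 (SE 0.43, limma adjusted p = 0.527). Bcl2a1b made up 56.4% to 66.9% of the sum of both copies in the 8 libraries, so their proportion varied far less than their level.

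Bcl2a1a (chromosome 9, 88956900 to 88962419), which is no member of the 10, had another pattern. It was at 49.4 and 32.0 TPM in KO 3 and 4, at 1.39 and 1.51 TPM in KO 1 and 2, at 2.08 TPM in WT 8 and listed at 0 in WT 6, 7 and 9. High values thus belong to the libraries with high myeloid markers. When all 4 copies were summed, the level was 835 ± 223 TPM in KO and 465 ± 268 TPM in WT cells (SD, n = 4 each). The log2 difference of this sum was 1.03 (SE 0.44, limma adjusted p = 0.529; exact permutation p = 0.143). Without WT 6 and 9 it was 0.24, without KO 3 and 4 it was 0.71, and without both pairs it was -0.08. KO 3 and 4 held the highest sums and WT 6 and 9 the lowest, so leaving them out had to shrink the difference.

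Bcl2 itself (chromosome 1, 106538178 to 106714274) was lowest in KO 4 and 3 and highest in WT 9. It measured 91.8, 87.1, 45.8 and 26.5 TPM across KO 1 to 4. Across WT 6 to 9 it measured 89.8, 47.7, 66.3 and 121 TPM. The groups overlapped widely, with KO 1 and 2 above WT 7 and 8. Means were 62.8 ± 31.8 TPM in KO and 81.2 ± 31.7 TPM in WT cells (SD, n = 4 each; log2 difference -0.45, SE 0.42, limma adjusted p = 0.770). The log2 difference was 0.22 when KO 3 and 4 were left out. Without both pairs, with 2 libraries left in each group, it was 0.66 (limma adjusted p = 0.286). KO 3 and 4 were the lowest KO libraries and WT 6 and 9 the highest WT libraries, so leaving them out had to raise the difference.

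Bcl2l1, the gene of BCL-XL (chromosome 2, 152780668 to 152831728), measured 61.7, 49.9, 65.2 and 63.1 TPM across KO 1 to 4. Across WT 6 to 9 it measured 34.1, 59.4, 72.2 and 26.4 TPM. The KO libraries were close together (SD 6.88), whereas WT 6 and 9 lay below every other library and WT 8 above. On the log2 scale the difference was 0.42 (SE 0.30, limma adjusted p = 0.688), and -0.13 without WT 6 and 9.

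Mcl1 (chromosome 3, 95658788 to 95663176), whose short-lived protein is needed by T cells at most stages, varied least among the survival genes. It ranged from 25.1 to 38.0 TPM in KO and from 25.2 to 31.6 TPM in WT libraries. The log2 difference was 0.17 (SE 0.17, limma adjusted p = 0.782).

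The BH3-only gene Bcl2l11 (chromosome 2, 128126038 to 128162547) had the smallest limma p of the 10 in the fit of all libraries; Bbc3 had the smaller exact permutation p. It measured 48.2, 26.9, 36.5 and 24.8 TPM across KO 1 to 4, against 10.6, 8.996, 26.0 and 21.2 TPM across WT 6 to 9. Every KO library was above WT 6, 7 and 9, and only WT 8 exceeded a KO library, KO 4. Means were 34.1 ± 10.7 and 16.7 ± 8.26 TPM (SD, n = 4 each), 2.04 times higher in KO. Its log2 difference was 1.06 (SE 0.35, limma unadjusted p = 0.0138, adjusted p = 0.472; exact permutation p = 0.0571). Leaving out KO 3 and 4 gave 1.19, leaving out WT 6 and 9 gave 1.05, and leaving out both pairs gave 1.17. In the last of these fits the limma unadjusted p of Bcl2l11 was not under 0.05. The part of the mix of cells in this difference was not tested. The lowest values were those of WT 7 (8.996 TPM) and WT 6 (10.6 TPM).

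Bbc3 (chromosome 7, 16308393 to 16318205) was the least abundant of the 10 in every library and the only 1 whose KO values all lay below its WT values. It measured 1.73, 1.51, 2.69 and 2.104 TPM across KO 1 to 4. Across WT 6 to 9 it measured 2.84, 4.05, 3.82 and 3.15 TPM. Groups that do not overlap in this direction were found for 2.40% of all genes tested, and in the opposite direction for 2.62%, with 0 of the 10. Means were 2.01 ± 0.516 TPM in KO and 3.46 ± 0.563 TPM in WT cells (SD, n = 4 each), 1.72 times lower in KO. On the log2 scale the difference was -0.58 (SE 0.25, limma unadjusted p = 0.0425, adjusted p = 0.530). By an exact permutation test p was 0.0286, the lowest that 4 against 4 allows. Leaving out KO 3 and 4 gave -0.76, leaving out WT 6 and 9 gave -0.73, and leaving out both pairs gave -0.91. These are small numbers in the table as deposited: 5, 5, 9 and 5 units in KO and 7, 9, 11 and 8 units in WT libraries, so that before rescaling KO 3 exceeded WT 6 and 9 and equalled WT 7. Bbc3 lies 2.5531 Mb from Pglyrp1 on the chromosome that carries the knockout allele, and the part of neighbouring sequence in its values was not tested. Bax, the other gene of the 10 on this chromosome, lies 26.5712 Mb away.

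Pmaip1, the gene of NOXA (chromosome 18, 66458533 to 66465565), measured 28.4, 28.1, 34.1 and 24.4 TPM across KO 1 to 4, against 13.4, 31.5, 30.6 and 10.2 TPM across WT 6 to 9. WT 6 and 9 were low, and WT 7 and 8 were among the highest. The log2 difference was 0.55 (SE 0.35, limma adjusted p = 0.651), and -0.12 without WT 6 and 9. Bid (chromosome 6, 120891930 to 120916853), which links death receptors to mitochondria once caspase 8 has cut its protein, ranged from 32.6 to 51.8 TPM in KO and from 25.2 to 41.5 TPM in WT libraries. Its log2 difference was 0.25 (SE 0.21, limma adjusted p = 0.745).

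The effector gene Bax (chromosome 7, 45461697 to 45466898) was at 109 to 156 TPM in KO and 106 to 156 TPM in WT libraries, ranges that nearly coincide. Its log2 difference was 0.09 (SE 0.17, limma adjusted p = 0.910). It took the opposite sign with quantile normalization (-0.04), when ribosomal protein genes were left out of the scaling (-0.01) and without KO 3 and 4 (-0.09). With a highest value 1.48 times the lowest, Bax varied least of the 10 over the libraries, whereas Bcl2a1d varied 6.67 times.

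**Figure D2:**
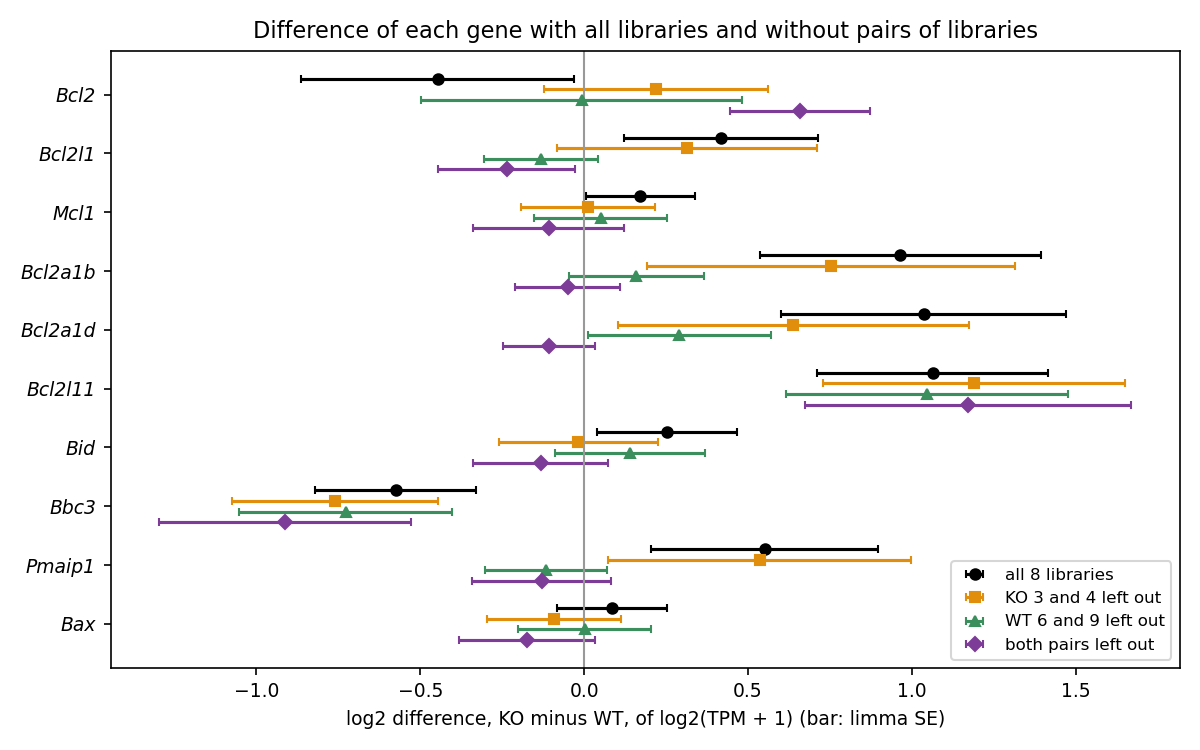
Log2 difference, KO minus WT, of each gene with all 8 libraries and with 1 or both pairs of libraries left out; bars are limma standard errors. Bcl2l11 stays between 1.05 and 1.19 and Bbc3 between -0.91 and -0.58 in these 4 fits, while Bcl2, Bcl2l1, Mcl1, Bcl2a1b, Bcl2a1d, Bid, Pmaip1 and Bax each lie on both sides of 0.

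In order of mean level over the 8 libraries, the genes ran Bcl2a1b (390.04 TPM), Bcl2a1d (238), Bax (129.7), Bcl2 (72.0), Bcl2l1 (54.0), Bid (39.2), Mcl1 (29.9), Bcl2l11 (25.4), Pmaip1 (25.1) and Bbc3 (2.74). The last position was the same in each library, but the others changed places. Bcl2a1b ranked 1 or 2, Bcl2a1d from 2 to 4 and Bax from 1 to 4, and in WT 6 Bax was above Bcl2a1b. Bcl2 ranked from 3 to 7 and Bcl2l11 and Mcl1 both from 6 to 9. Bcl2l11 and Pmaip1 differed by far less than their spread over libraries.

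Ratios within a library show how the mix of survival and death RNA varied; they are descriptions and were not tested. Bcl2 was 1.91, 3.24, 1.25 and 1.07 times as abundant as Bcl2l11 in KO libraries 1 to 4. In WT libraries 6 to 9 it was 8.50, 5.30, 2.55 and 5.70 times as abundant. Only WT 8 fell within the KO range. A1 copies b and d made up 78.7% to 87.8% of the summed RNA of the 5 survival genes in KO libraries and 82.6% and 80.5% in WT 7 and 8, but 52.3% and 64.4% in WT 6 and 9. The sum of the survival genes was 760.3 to 1177 TPM in KO and 314 to 874 TPM in WT libraries, and that of the 4 BH3-only genes 89.2 to 125 TPM and 59.8 to 99.7 TPM.

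The libraries divided these genes into sets that did not match genotype alone. WT 6 and 9 were below the other 6 libraries for Bcl2l1, Bcl2a1b, Bcl2a1d and Pmaip1, 4 of the 10, and for 17.3% of all genes tested. KO 3 and 4 were above the other 6 for Mcl1, Bcl2a1b, Bcl2a1d and Bid, also 4 of the 10, and for 14.2% of all genes. KO 3 and 4 were below the other 6 for Bcl2 only, a pattern found in 4.78% of all genes. These pairs were set by marker genes and known results, so the counts are descriptions. Each count of 4 holds both A1 copies, whose reads cannot be fully told apart.

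**Figure D3:**
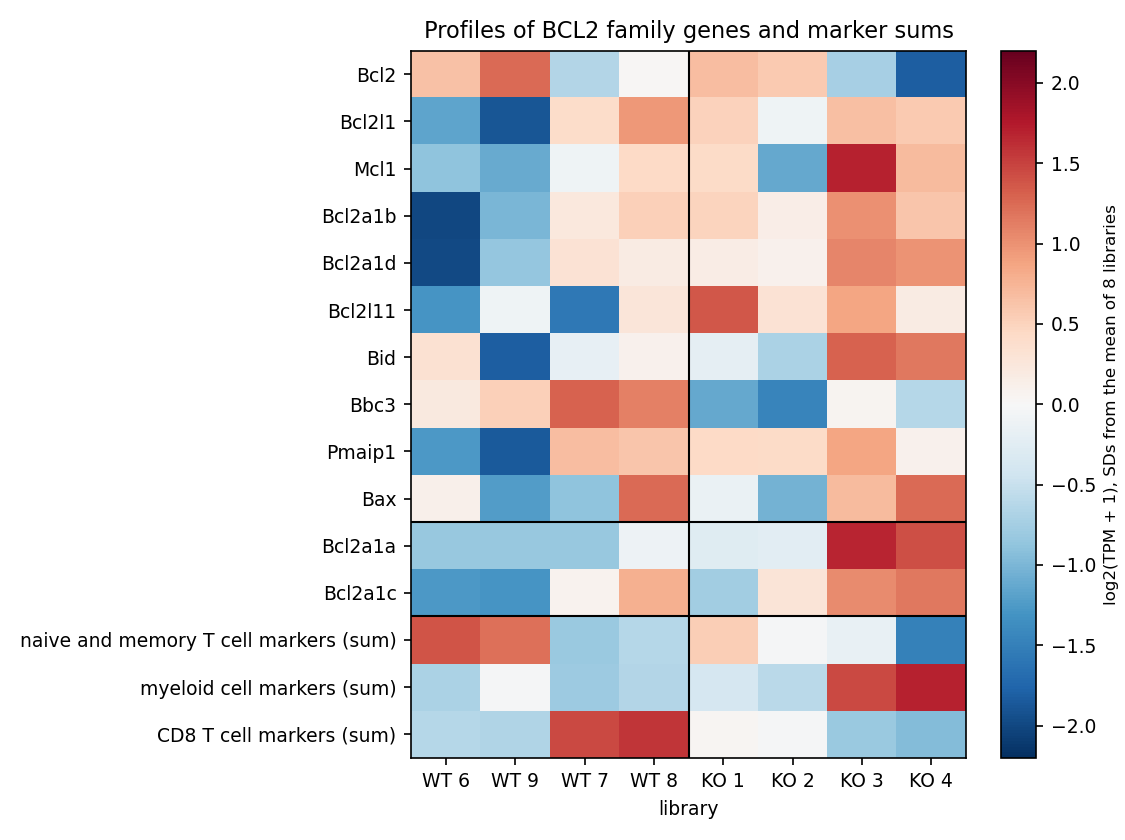
Each line of the colour map is a BCL2 family gene or the sum of a marker list, in standard deviations of log2(TPM + 1) from its mean over 8 libraries; columns are libraries, WT on the left of the black line. WT 6 and 9 are low for Bcl2l1, Bcl2a1b, Bcl2a1d and Pmaip1 and high for naive and memory markers, and Bcl2a1a is high in KO 3 and 4 alone, as are myeloid markers.

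Likeness between profiles was measured as the Euclidean distance between standardized log2 values over the 8 libraries, where a smaller distance means a closer match. Among the 10 genes, Bcl2a1b and Bcl2a1d were closest (0.63), followed by Bcl2l1 and Pmaip1 (0.86). Among other genes averaging 5 TPM or more, the closest to Bcl2a1b were Srgn (0.39), a granule proteoglycan, Ndfip1 (0.41), an adaptor of ubiquitin ligases, and Dom3z (0.42). Those closest to Bcl2a1d were Rce1 (0.40), Pdcd1 (0.44), which encodes PD-1, and Endod1 (0.50). Bcl2 was closest to Rrp1 (0.43), Srsf5 (0.50) and 5730408K05Rik (0.59). Those nearest to Bcl2l11 were Thrap3 (0.55), Hypk (0.67) and Lyst (0.80). Bbc3 was closest to Ldoc1l (0.79), Slc25a45 (0.85) and Slc1a5 (0.97). Pmaip1 was closest to Mctp2 (0.43), Chp1 (0.61) and Higd1a (0.65). Near Bcl2l1 lay Map2k1 (0.56) and Fut7 (0.57). Mcl1 was closest to Ift46 (0.55), Cd209a (0.60) and Casp8 (0.61), Bid to Setd5 (0.55), Sertad3 (0.58) and Dapp1 (0.70), and Bax to 2900097C17Rik (0.78), Exoc6b (0.78) and Ipo9 (0.91).

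Other genes of the pathway were read from the same fit, in which 5926 of all 10732 genes (55.2%) had higher values in KO. With quantile normalization that share was 43.3% (median log2 difference -0.051). Of 14 other BCL2 family genes in the table, 8 entered the test, 0 passed, 7 had higher and 1 lower values in KO, and the median log2 difference was 0.24. Without both pairs 2 of 9 tested were higher (median -0.25). The BH3-only genes Bmf and Hrk were among the 6 too low to be tested. Bcl2a1a had an unadjusted p of 0.0178 and an adjusted p of 0.478 (limma); its log2 difference of 2.91 was 0.89 without KO 3 and 4. Bak1, the partner effector of Bax, ranged from 7.62 to 11.1 TPM in KO and from 3.25 to 11.2 TPM in WT libraries.

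Downstream of the mitochondria, 18 of 19 genes of the apoptosome, the caspases and their inhibitors were tested, 0 passed, and 15 had higher values in KO (median log2 difference 0.27). Without KO 3 and 4 the count was 10 of 19 and without WT 6 and 9 it was 9 of 19 (medians 0.12 and -0.020). Leaving out both pairs gave 8 of 19 (median -0.14). Of all genes tested in these fits, 47.5%, 45.9% and 37.5% had higher values in KO. Cycs, which encodes cytochrome c, measured 53.02, 68.9, 76.3 and 81.2 TPM across KO 1 to 4, against 36.6, 54.0, 59.7 and 49.95 TPM across WT 6 to 9 (log2 difference 0.48, SE 0.19, limma adjusted p = 0.525). KO 1 alone fell within the WT range, and without both pairs the difference was 0.089.

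All 15 death receptor genes were tested, 0 passed, and 8 had higher and 7 lower values in KO (median log2 difference 0.01). Without both pairs 1 was higher and 14 were lower (median -0.25), where 37.5% of all genes were higher. Tnfrsf1b, a receptor of tumour necrosis factor, had 111 ± 17.0 TPM in KO and 69.6 ± 32.4 TPM in WT cells (SD, n = 4 each; limma adjusted p = 0.525). Its log2 difference of 0.78 was 0.18 without WT 6 and 9 and -0.010 without both pairs.

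Of p53 and its targets, 13 of 16 genes were tested, 0 passed, and 6 had higher and 7 lower values in KO (median log2 difference -0.02; -0.059 without both pairs). Bax, Bbc3 and Pmaip1 are themselves p53 targets. Cdkn1a, a cell cycle inhibitor, measured 35.3, 26.6, 97.2 and 107 TPM across KO 1 to 4, against 4.06, 41.4, 29.2 and 3.15 TPM across WT 6 to 9 (log2 difference 2.16, SE 0.81, limma adjusted p = 0.501). It was thus high in KO 3 and 4 and low in WT 6 and 9. Its log2 difference was 1.31 without the first pair, 0.68 without the second and -0.17 without both. Perp, a desmosome protein, had 12.8 ± 7.89 TPM in KO and 3.81 ± 3.49 TPM in WT cells (SD, n = 4 each; limma adjusted p = 0.497), a log2 difference of 1.53 that was 0.50 without both pairs.

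Of 21 regulators of the family, all were tested, 0 passed, and 11 had higher and 10 lower values in KO (median log2 difference 0.02; -0.090 without both pairs). Il7r, the interleukin 7 receptor that sustains BCL2, measured 114, 98.3, 71.5 and 65.2 TPM across KO 1 to 4, against 135, 109, 119 and 109 TPM across WT 6 to 9 (log2 difference -0.46, SE 0.19, limma adjusted p = 0.527). Only KO 1 reached the WT range, and without KO 3 and 4 the difference was -0.15. Ddit3, the stress factor CHOP, had 75.4 ± 12.4 TPM in KO and 50.6 ± 20.6 TPM in WT cells (SD, n = 4 each; limma adjusted p = 0.537). Its log2 difference of 0.64 was 0.14 without WT 6 and 9. Foxo1 and Foxo3, named here because their motif is marked above, had log2 differences of -0.65 (SE 0.30, limma adjusted p = 0.560) and -0.31 (SE 0.45, limma adjusted p = 0.865). Without both pairs these were -0.025 and -1.33 (limma adjusted p = 0.989 and 0.224).

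**Figure D4:**
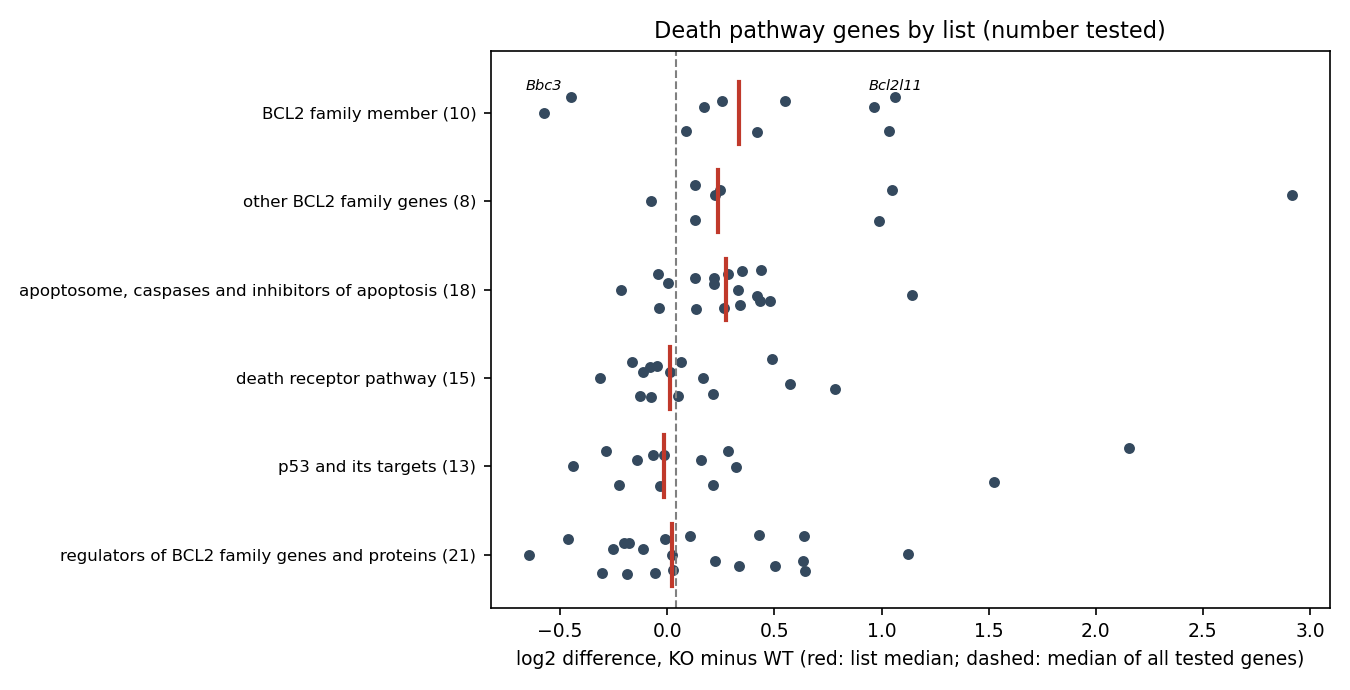
Log2 difference, KO minus WT, of every tested gene in 6 gene lists, 1 point per gene, with the list median in red and the median of all 10732 genes as a dashed line. Medians of the BCL2 family, other BCL2 family and caspase lists lie at 0.24 to 0.34, and the other 3 at -0.02 to 0.02; Bbc3 and Bcl2l11, the lowest and the highest of the 10, are named.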

How the data were processed

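The authors deposited a score, named a TPM-normalized count: whole numbers with unequal library sums, so neither read counts nor true TPM. The submitters' processing notes list RSEM 1.3.3 and mm10; aligner, annotation and rounding were not given in the sources used here. Sequencing depth cannot be read from the table, so counting intervals were not computed; 1 unit of the score was worth 0.299 to 0.450 TPM. Libraries were scaled to 1000000 and log2(value + 1) was compared, KO against WT, with limma 3.58.1 (R 4.3.3; moderated variances with a trend on mean level; no covariate). Single genes also got exact permutation tests (two-sided, 70 possible assignments). The code was tested on simulated data. Pandas 2.3.3 and numpy 2.4.6 handled tables. Gene positions are from GENCODE M21. The members and gene lists were chosen with earlier results of these data known. Named genes are all 10 members, up to 4 genes of each pathway list with an unadjusted p under 0.05, and the 3 nearest profiles of each member; Foxo1, Foxo3, Bak1, Bmf and Hrk were added after their values were seen. A gene of a pathway list and a nearest profile that this rule names are not reported here. Alternatives varied the pseudocount, filter, scaling and limma options and left out libraries.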

Additional observations from a re-analysis of the deposited data

Results flagged for a closer look

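In 36 groups of 4 libraries (18 genes in KO and in WT), 2 held a library far from the other 3 relative to the range of the group, where chance marks about 1 in 20. Bcl2a1a was at 2.08 TPM in WT 8 and listed at 0 in the other WT libraries. Perp was at 9.03 TPM in WT 8 and at 1.80 to 2.44 TPM in the other WT libraries. None of the 10 BCL2 family genes was marked in this way.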

How the results depend on the processing

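The labels give no pairing of KO libraries (numbered 1 to 4) with WT libraries (6 to 9), so no paired analysis was made. In 21 alternatives, 0 of the 10 genes passed the adjusted threshold (limma). Over all genes, 3 passed with all libraries, 2 to 9 without 1 library (9 without KO replicate 2, 5 without KO replicate 1), 5 when KO 3 and 4 were left out, 5 when WT 6 and 9 were, and 10 when both pairs were. The settings that leave out pairs were chosen after the data were seen. Bcl2l11 kept its direction in all 21 (0.83 to 1.32, adjusted p 0.275 to 1.000 rounded from 0.99977) and an unadjusted p under 0.05 in 20. Bbc3 kept its direction in the 20 in which it was tested (-0.91 to -0.27), with an unadjusted p under 0.05 in 10; its groups overlapped on the deposited scale. Without both pairs, signs turned for the A1 copies summed (-0.081), Bcl2 (0.66), Bcl2l1 (-0.24), Mcl1 (-0.11), Bcl2a1b (-0.050), Bcl2a1d (-0.11), Bax (-0.18), Bid (-0.13) and Pmaip1 (-0.13). Without KO 3 and 4 they turned for Bcl2 (0.22), Bax (-0.091) and Bid (-0.018), and without WT 6 and 9 for Bcl2l1 (-0.13) and Pmaip1 (-0.12). Bax also turned with quantile normalization (-0.041) and without ribosomal protein genes (-0.011). The cause was not tested. The median of all genes moved from 0.04 to 0.27 without rescaling. Unadjusted calls in KO (645 higher, 329 lower) became 1558 and 74 without rescaling, 565 and 535 with quantile normalization and 592 and 534 without ribosomal protein genes.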
